A study of Mus musculus with 13 samples.

Results

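The 9 genes described here, Msln, Muc16, Upk3b, Upk1b, Wt1, Bnc1, Rspo1, Lrrn4 and Gpm6a, are markers of the mesothelium, the flat cell layer of the pleura that covers the lung. They were chosen by gene symbol, and all 9 were found among the 20270 genes of the deposited tables and among the 15315 that passed a filter on low counts and were tested. Bulk RNA from the lower right lobe of 13 mice was sequenced after poly(A) selection: 4 control mice, 5 WT mice given bleomycin and 4 CB1R KO mice given bleomycin. Bleomycin, a drug that injures the lung and leads to fibrosis, was given once by oropharyngeal aspiration at 1 U per kg, and lungs were taken 14 days later. WT mice were 13-week-old male C57BL/6J mice, and control mice were wildtype, the study's control groups having received saline. CB1R KO mice lacked Cnr1, the gene of cannabinoid receptor 1, in all tissues (Cnr1-/-) on a C57Bl/6J background, and their age is not given in the sources used here. Knockout mice that had no bleomycin are not part of the data analysed here, so a genotype difference after bleomycin cannot be told apart from one present before it. Replicate numbers are those of the labels, namely 3, 21, 24 and 26 (control), 4, 2, 5, 4-B2 and 7 (WT bleomycin) and 8, 9, 10 and 11 (CB1R KO bleomycin).

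Mesothelial cells form a lubricated lining of the pleural cavity, carry microvilli, and express keratins together with mesenchymal genes. Mesothelin (Msln) is a surface protein that binds the large membrane mucin Muc16, and Wt1 is the transcription factor that marks mesothelium from the embryo onwards. Pleural cells are a small part of a lobe and lie at its surface, and in bulk RNA fewer cells of a type and less RNA per cell cannot be told apart.

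Promoter windows of 300 bases, 250 before and 50 after a transcription start, were read from RefSeq sequences of build GRCm38.p6, and 6 of the 9 genes were matched. Those of Upk3b and Rspo1, whose RNA fell after bleomycin, and of Lrrn4, which varied widely within the bleomycin groups, are shown 5′ to 3′. They were taken because the 3 genes moved together from mouse to mouse. They lie at chr5:136038246-136038545 on the plus strand for Upk3b, chr2:132880813-132881112 on the minus strand for Lrrn4 and chr4:124986180-124986479 on the plus strand for Rspo1. Capitals mark GGAATG or its reverse complement CATTCC, the core letters bound by TEAD factors, the partners of YAP and TAZ.
Upk3b: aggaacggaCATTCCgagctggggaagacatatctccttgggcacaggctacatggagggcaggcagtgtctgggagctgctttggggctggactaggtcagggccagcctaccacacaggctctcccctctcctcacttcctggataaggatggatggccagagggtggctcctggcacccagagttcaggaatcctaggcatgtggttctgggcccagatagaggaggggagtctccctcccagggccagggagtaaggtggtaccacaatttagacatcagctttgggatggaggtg
Lrrn4: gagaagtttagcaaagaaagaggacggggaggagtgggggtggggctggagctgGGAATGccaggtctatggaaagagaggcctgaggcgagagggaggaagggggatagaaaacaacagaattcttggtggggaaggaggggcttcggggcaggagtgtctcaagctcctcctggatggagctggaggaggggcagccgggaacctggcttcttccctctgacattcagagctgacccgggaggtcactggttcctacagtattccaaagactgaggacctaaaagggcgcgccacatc
Rspo1: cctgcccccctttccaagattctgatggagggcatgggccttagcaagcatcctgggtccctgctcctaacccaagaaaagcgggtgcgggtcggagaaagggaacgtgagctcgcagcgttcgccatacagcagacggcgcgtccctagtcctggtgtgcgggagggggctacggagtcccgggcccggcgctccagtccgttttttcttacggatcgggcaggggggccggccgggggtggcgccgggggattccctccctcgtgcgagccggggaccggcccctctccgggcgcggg
The TEAD letters began at position -241 from the start in Upk3b and at -196 in Lrrn4, and Rspo1 had no match. A match was also present in 1 of the 2 Gpm6a windows, at -125, so that 3 of 7 windows of these genes held it, against 14.7% of all 32851 RefSeq windows. Searched on both strands, neither form of the WT1 motif, GCGTGGGAG (0.472% of all windows) and GCGGGGGCG (2.91%), nor the EGR motif GCGTGGGCG (0.612%) was found in the 7 windows. The last of these differs from the first in few letters, and GCGGGGGCG can share bases with the GC box GGGCGG (35.7% of all windows), which occurred 6 times in the Bnc1 window and once in 1 Gpm6a window. The TATA box letters TATAAA (13.6% of all windows) occurred in the other Gpm6a window only. The Bnc1 window had a GC content of 83.3%, above the median of 52.7% over all windows, while that of Rspo1 was 69.0% and that of Muc16 was 46.7%. A match describes letters in these windows and not a site in use.

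Depth was 14615904 to 16662580 estimated counts in 12 libraries and 53463884 in CB1R KO replicate 11. Cnr1 was counted in all of them, at 0.403 to 1.05 TPM (a level scaled for transcript length and library total) in control, 0.848 to 1.85 in WT bleomycin and 0.648 to 1.50 in the libraries labelled CB1R KO, so the counts did not check the genotype and directions between genotypes rest on the labels. Control 26 and WT 4-B2 and 7 carry labels written in another style than the rest, and the labels do not say what this marks.

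All 9 genes were detected in each of the 13 libraries. Per transcript length, Msln was the highest in control lung at 51.6 ± 10.4 TPM (SD, n = 4), followed by Gpm6a at 41.0 ± 2.05, Upk1b at 37.9 ± 2.97 and Upk3b at 33.6 ± 4.59. Neighbours in this order overlapped between mice. Below them and without overlap came Rspo1 at 17.8 ± 1.78 TPM, Lrrn4 at 10.2 ± 0.37, Muc16 at 6.37 ± 1.33, Wt1 at 2.47 ± 0.37 and Bnc1 at 1.50 ± 0.09. In WT bleomycin lungs, Msln stood at 90.8 ± 17.0 TPM (SD, n = 5), apart from Upk1b at 27.3 ± 2.38 in every mouse. All 9 genes summed to 177 to 223 TPM in control and 148 to 210 in WT bleomycin lungs. In CB1R KO bleomycin lungs they summed to 145 to 187 TPM, and both bleomycin groups overlapped with control. Msln was the only gene of the 9 with a higher mean in WT bleomycin than in control lungs. Without it, the other 8 genes summed to 137 to 159 TPM in control. They summed to 85.1 to 112 TPM in WT bleomycin and 90.8 to 119 in CB1R KO bleomycin lungs, below all control mice.

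The first question was how these genes differed between bleomycin and control lungs of WT mice. Rspo1, Gpm6a, Upk3b, Upk1b and Muc16 fell, Msln rose, and Lrrn4, Bnc1 and Wt1 did not pass the test (edgeR's quasi-likelihood test, Benjamini-Hochberg adjusted p under 0.05). These are 5 of 9 lower and 1 of 9 higher, where 23.9% of all genes tested passed as lower, 25.0% as higher and 48.9% in either direction. In the libraries labelled CB1R KO the same 5 genes were below control by this test, and none was above, where 16.3% of all genes passed as lower, 19.0% as higher and 35.4% in either direction. Between CB1R KO and WT bleomycin lungs, none of the 9 passed by edgeR, where 0.979% of all genes did, 0.620% as lower and 0.359% as higher. At an unadjusted p under 0.05 this count was 1 gene, Msln, where 17.0% of all genes passed, and DESeq2 called 1 gene, also Msln. The 3 comparisons share libraries in pairs, so their values are given side by side and not as separate evidence.

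**Figure D1:**
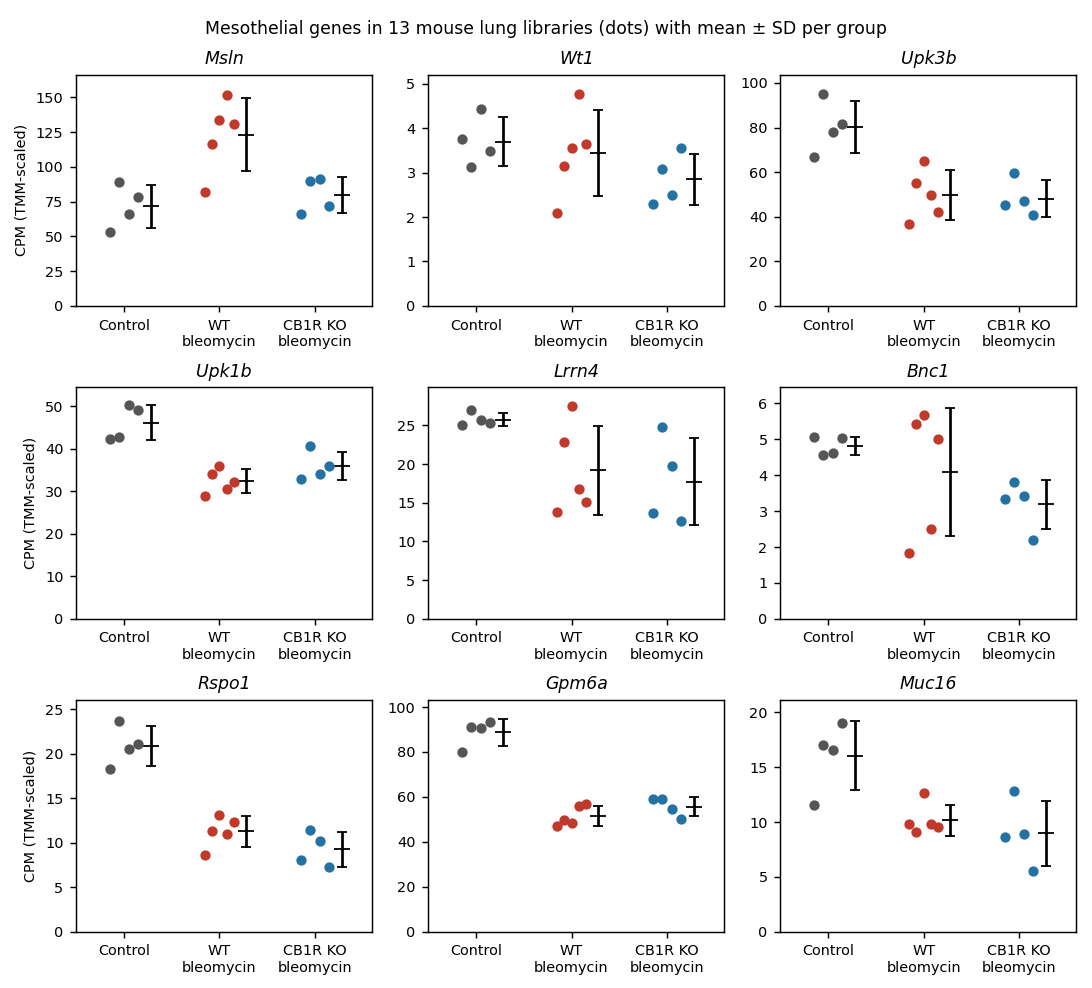
Each panel plots 1 gene, with CPM (read counts scaled to library size) on a linear axis from 0 for each mouse as a dot in the control, WT bleomycin and CB1R KO bleomycin groups, and bars for the group mean ± SD. Msln is highest in WT bleomycin lungs, up to 152 CPM, while Gpm6a and Rspo1 lie below all 4 control mice in each of the 9 mice given bleomycin.

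Msln, given in CPM (read counts scaled to library size by the TMM method), was 53.3, 89.2, 66.0 and 78.4 in control replicates 3, 21, 24 and 26. It was 82.2, 117, 134, 152 and 131 CPM in WT bleomycin replicates 4, 2, 5, 4-B2 and 7, and 66.2, 89.9, 91.4 and 71.7 in CB1R KO replicates 8, 9, 10 and 11. Of the 5 WT bleomycin mice, 4 stood above every control and every CB1R KO mouse, and replicate 4 lay among both. Msln rose with bleomycin in WT lungs by a log2 fold change of 0.78 (SE 0.17, adjusted p = 0.00193, edgeR), to 172% of the control mean, and this call held under all 24 alternatives. From WT to CB1R KO bleomycin lungs the log2 difference was -0.63 (SE 0.17, edgeR adjusted p = 0.0909), which did not pass. Without WT replicate 4 it was -0.74 (edgeR adjusted p = 0.0312) and with DESeq2 -0.62 (adjusted p = 0.0150). Of 24 alternatives only these 2 passed, and adjusted p ranged from 0.0150 to 0.422. With label style as a term the difference was -0.50 (edgeR adjusted p = 0.235). Among mice with the more common label style it was -0.48 (edgeR adjusted p = 0.422). Against control, the libraries labelled CB1R KO differed by 0.15 (SE 0.18, edgeR adjusted p = 0.542).

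Muc16, the mesothelin-binding mucin, was 11.6, 17.1, 16.6 and 19.0 CPM in control replicates 3, 21, 24 and 26. After bleomycin it was 9.82, 9.08, 12.6, 9.83 and 9.50 CPM in WT replicates 4, 2, 5, 4-B2 and 7, and 8.63, 12.8, 8.95 and 5.52 in CB1R KO replicates 8, 9, 10 and 11. In CPM, only control 3 overlapped with bleomycin mice, with WT 5 and CB1R KO 9 above it. In TPM, control was at 4.52 to 7.56, WT bleomycin at 4.10 to 5.55 and CB1R KO bleomycin at 2.82 to 4.67. Muc16 fell in WT lungs (log2 fold change -0.66, SE 0.20, edgeR adjusted p = 0.0150) and in CB1R KO lungs (-0.86, SE 0.22, edgeR adjusted p = 0.00682). The fall in WT lungs did not pass on the TPM scale (limma on log2(TPM + 1), -0.35, adjusted p = 0.0599) or among mice with the more common label style (edgeR, -0.52, adjusted p = 0.150), the range over alternatives being 0.00349 to 0.150. CB1R KO and WT bleomycin lungs differed by -0.20 (SE 0.21, edgeR adjusted p = 0.661). Among the other membrane mucins, Muc1, Muc4 and Muc20 rose in WT lungs, by 0.35, 1.45 and 0.47 on the log2 scale.

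The ratio of Msln to Muc16 within a library needs no scaling between libraries, and on the log2 TPM scale it was 3.11, 3.07, 2.88 and 2.95 in control replicates 3, 21, 24 and 26. It was 3.79, 4.24, 4.28, 4.27 and 4.51 in WT bleomycin replicates 4, 2, 5, 4-B2 and 7, and 4.13, 3.84, 4.23 and 3.94 in CB1R KO replicates 8, 9, 10 and 11. All 9 mice given bleomycin stood above all 4 controls. The mean difference from control was 1.22 in WT lungs (two-sided exact permutation p = 0.0159, adjusted over 9 ratio tests 0.0857) and 1.03 in CB1R KO lungs (exact permutation p = 0.0286, adjusted 0.0857). Both p-values are the smallest their group sizes allow, and neither passed 0.05 after adjustment. The 2 bleomycin groups overlapped, with a difference of -0.18 (exact permutation p = 0.270, adjusted 0.367).

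**Figure D2:**
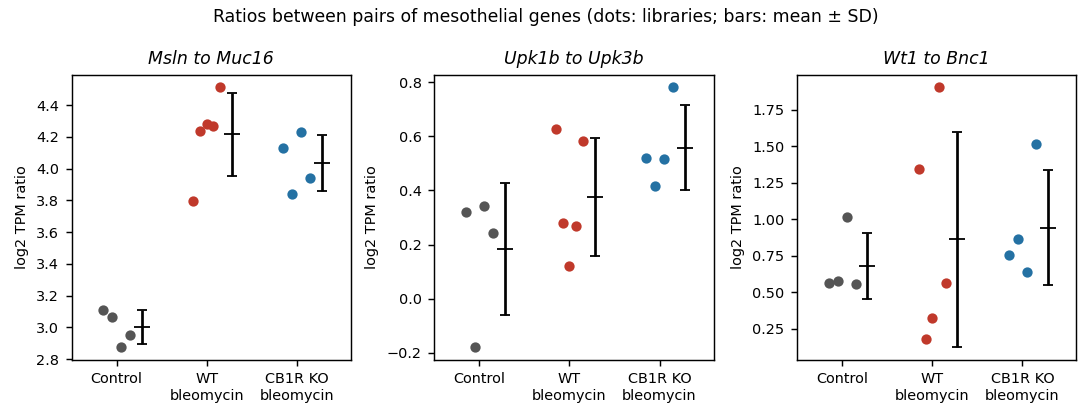
The log2 TPM ratio of Msln to Muc16, of Upk1b to Upk3b and of Wt1 to Bnc1 is plotted for each mouse as a dot, by group, with bars for mean ± SD on axes that do not start at 0. The Msln to Muc16 ratio is 2.88 to 3.11 in control mice and 3.79 to 4.51 in mice given bleomycin.

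Uroplakins are membrane proteins first known from the bladder lining, where Upk3b and the tetraspanin Upk1b pair, and both are also mesothelial. Upk3b was 66.6, 95.0, 77.9 and 81.6 CPM in control replicates 3, 21, 24 and 26. In WT bleomycin replicates 4, 2, 5, 4-B2 and 7 it was 36.7, 54.9, 65.0, 49.8 and 42.3 CPM, and in CB1R KO replicates 8, 9, 10 and 11 it was 45.1, 59.8, 46.9 and 40.6. Every mouse given bleomycin lay below every control, although WT 5 was close to control 3. The fall was -0.69 in WT lungs (log2, SE 0.15, edgeR adjusted p = 0.00195) and -0.74 in CB1R KO lungs (SE 0.16, edgeR adjusted p = 0.00298), and the genotypes differed by -0.05 (SE 0.16, edgeR adjusted p = 0.894).

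Upk1b was 42.4, 42.7, 50.3 and 49.0 CPM in control replicates 3, 21, 24 and 26. It was 28.9, 34.0, 36.0, 30.5 and 32.2 CPM in WT bleomycin replicates 4, 2, 5, 4-B2 and 7, and 32.9, 40.6, 34.2 and 36.0 in CB1R KO replicates 8, 9, 10 and 11. Again no mouse given bleomycin reached the control range, and the 2 bleomycin groups overlapped. Upk1b fell by 0.51 on the log2 scale in WT lungs (SE 0.09, edgeR adjusted p = 0.000196) and by 0.36 in CB1R KO lungs (SE 0.09, edgeR adjusted p = 0.00646), with a difference between them of 0.15 (SE 0.09, edgeR adjusted p = 0.385). The log2 ratio of Upk1b to Upk3b was 0.18 ± 0.24 in control (SD, n = 4), 0.38 ± 0.22 in WT bleomycin (n = 5) and 0.56 ± 0.16 in CB1R KO lungs (n = 4), and none of its 3 comparisons passed after adjustment. Across the family, 4 of 5 uroplakins tested were lower in WT bleomycin lungs, where 23.9% of all genes passed as lower. These were the members Upk1b and Upk3b with Upk1a at -0.69 and Upk2 at -1.10, while Upk3a did not pass at 0.86. Upk1a and Upk2 were low already in control lungs, with means of 2.12 and 1.68 TPM.

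Of the transcription factors, Wt1 is the zinc-finger regulator of mesothelium, and Bnc1 (basonuclin 1) is a zinc-finger protein of keratinocytes, germ cells and mesothelium. Wt1 was 3.74, 3.12, 4.42 and 3.48 CPM in control replicates 3, 21, 24 and 26. It was 2.09, 3.15, 3.56, 4.78 and 3.64 CPM in WT bleomycin replicates 4, 2, 5, 4-B2 and 7, and 2.29, 3.08, 2.49 and 3.54 in CB1R KO replicates 8, 9, 10 and 11. The 3 groups overlapped, and these levels rest on 33.2 to 192 estimated counts per library. The log2 differences were -0.10 (SE 0.22) for WT bleomycin and -0.35 (SE 0.23) for CB1R KO bleomycin against control, and -0.25 (SE 0.22) between genotypes, with edgeR adjusted p = 0.729, 0.254 and 0.601.

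Bnc1 was even among controls and uneven after bleomycin. It was 5.05, 4.57, 4.61 and 5.03 CPM in control replicates 3, 21, 24 and 26, 1.84, 5.44, 5.69, 2.49 and 5.00 in WT bleomycin replicates 4, 2, 5, 4-B2 and 7, and 3.34, 3.80, 3.42 and 2.20 in CB1R KO replicates 8, 9, 10 and 11. Among WT bleomycin mice, 4 and 4-B2 lay below all controls with 29 and 36 counts, and 2 and 5 lay above them, while all 4 CB1R KO mice lay below all controls. No difference passed: the log2 values were -0.23 (SE 0.29) for WT bleomycin and -0.62 (SE 0.31) for CB1R KO bleomycin against control and -0.39 (SE 0.29) between genotypes, with edgeR adjusted p = 0.532, 0.130 and 0.534. When CB1R KO bleomycin and control were fitted alone, the second was -0.61 (edgeR adjusted p = 0.0386, range over alternatives 0.0386 to 0.325). In the annotation of GRCm38, exons of Bnc1 overlap a pseudogene on the opposite strand, and strand-specific counting is not given in the sources used here. Its relative Bnc2 rose in WT lungs by 0.58 on the log2 scale (edgeR adjusted p = 0.0237). The log2 ratio of Wt1 to Bnc1 ranged from 0.18 to 1.90 among WT bleomycin mice and passed in none of 3 comparisons.

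Rspo1 is a secreted R-spondin that strengthens Wnt signalling by binding Lgr receptors and drawing off the ubiquitin ligases Znrf3 and Rnf43. It was 18.2, 23.7, 20.6 and 21.1 CPM in control replicates 3, 21, 24 and 26. In WT bleomycin replicates 4, 2, 5, 4-B2 and 7 it was 8.62, 11.4, 13.1, 10.9 and 12.3 CPM, and in CB1R KO replicates 8, 9, 10 and 11 it was 8.05, 11.5, 10.3 and 7.24. The gap to control was wide, with the highest bleomycin mouse at 13.1 and the lowest control at 18.2. Rspo1 was at 54.0% of the control mean in WT lungs (log2 fold change -0.89, SE 0.15, edgeR adjusted p = 0.000187) and at 44.2% in CB1R KO lungs (-1.19, SE 0.16, edgeR adjusted p = 6.55e-05). The genotypes differed by -0.30 (SE 0.15, edgeR adjusted p = 0.336). Of 9 R-spondins, receptors and ligases, 4 passed as lower in WT lungs and none as higher, where 23.9% and 25.0% of all genes did. The 4 were Rspo1, Lgr6 (-0.75), Znrf3 (-0.57) and Rnf43 (-0.58). Rspo3 was at 0.24 and Rspo2 at 0.80, and neither passed. In CB1R KO lungs against control, Rspo1 and Znrf3 (-0.34) were lower and Rspo2 (1.37) was higher. Rspo2 was very low, at a mean of 0.15 TPM in control and 0.41 in CB1R KO bleomycin lungs.

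Gpm6a, a proteolipid family membrane protein of neurons and mesothelium that is also found in type I alveolar cells, was 79.8, 91.0, 90.7 and 93.4 CPM in control replicates 3, 21, 24 and 26. It was 46.9, 49.7, 48.4, 55.9 and 56.8 CPM in WT bleomycin replicates 4, 2, 5, 4-B2 and 7, and 59.1, 59.0, 54.4 and 50.3 in CB1R KO replicates 8, 9, 10 and 11. All 9 mice given bleomycin were below all controls, with little spread within each group. Gpm6a fell by 0.78 on the log2 scale in WT lungs (SE 0.08, edgeR adjusted p = 1.92e-06) and by 0.67 in CB1R KO lungs (SE 0.08, edgeR adjusted p = 2.94e-05), with a difference of 0.11 between genotypes (SE 0.08, edgeR adjusted p = 0.495). Its relative Gpm6b did not pass in WT lungs, at -0.02. Of 8 genes of type I cells, 4 (Hopx, Rtkn2, Cav1 and Emp2) passed as lower in WT lungs, where 23.9% of all genes did, and Ager (-0.21), Akap5 (-0.16), Aqp5 (0.19) and Cldn18 (0.10) did not pass. The summed level of the 8 was 5539 to 5915 TPM in control, 4123 to 4541 in WT bleomycin and 4204 to 5848 in CB1R KO bleomycin lungs, none of the 8 being at 0 in every library. The part of these cells in the fall of Gpm6a was not tested.

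Lrrn4, a leucine-rich repeat membrane protein used as a mesothelial marker, had a narrow control range, at 25.0, 26.9, 25.7 and 25.3 CPM in replicates 3, 21, 24 and 26. It was 13.8, 22.9, 27.4, 16.7 and 15.1 CPM in WT bleomycin replicates 4, 2, 5, 4-B2 and 7, and 13.7, 24.8, 19.7 and 12.7 in CB1R KO replicates 8, 9, 10 and 11. WT 5 stood above all controls and the other WT mice below them, and all 4 CB1R KO mice were below, with replicate 9 just under the lowest control. Neither difference from control passed, at -0.42 in WT lungs (log2, SE 0.21, edgeR adjusted p = 0.112) and -0.55 in CB1R KO lungs (SE 0.22, edgeR adjusted p = 0.0686), and the genotypes differed by -0.13 (SE 0.21, edgeR adjusted p = 0.800). Without WT replicate 5 the WT value was -0.58 (edgeR adjusted p = 0.0294, range over alternatives 0.0294 to 0.449). Without CB1R KO replicate 9 the CB1R KO value was -0.75 (edgeR adjusted p = 0.0162, range 0.0162 to 0.205). Its relatives went both ways in WT lungs, with Lrrn1 higher by 2.58 and Lrrn3 at -1.65. Lrrn1 was very low, at a mean of 0.075 TPM in control and 0.466 in WT bleomycin lungs, while Lrrn3 was at 7.32 TPM in control.

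**Figure D3:**
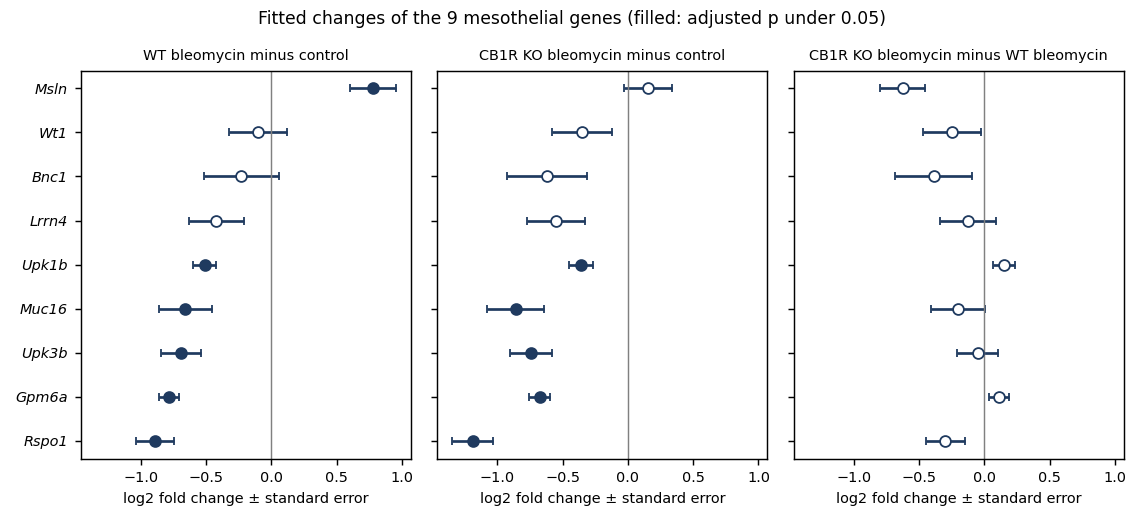
Log2 fold changes from edgeR with their standard errors are plotted for the 9 genes in WT bleomycin minus control, CB1R KO bleomycin minus control and CB1R KO minus WT bleomycin, with filled points for an adjusted p under 0.05. Msln is the gene at 0.78 on the right of the first panel, 5 genes are filled on the left of each of the first 2 panels, and no point is filled in the third.

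The median log2 difference of the 9 genes was -0.51 in WT bleomycin against control, -0.62 in CB1R KO bleomycin against control and -0.20 between genotypes, where the medians over all genes tested were -0.01, -0.01 and 0.00. Upk3b, Upk1b, Rspo1 and Gpm6a, 4 of 9, had no overlap between WT bleomycin and control mice on the lower side, where 18.8% of all genes had none. No member lay wholly above control in either bleomycin group, where 21.5% of all genes did in WT and 17.7% in CB1R KO lungs. These 4 with Lrrn4 and Bnc1, 6 of 9, had none between CB1R KO bleomycin and control, where 15.8% of all genes had none on that side. Between the 2 bleomycin groups all 9 genes overlapped, where 3.10% of all genes did not on the lower side and 2.50% on the higher side.

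Of 18 other genes used for mesothelium, several of which epithelium and fibroblasts also express, 16 were tested. In WT bleomycin lungs 9 passed as higher, 3 as lower and 4 did not pass, where 25.0% of all genes passed as higher and 23.9% as lower, with a median of 0.54. The highest were Ildr2, a membrane protein of tricellular contacts, at 2.38 (log2, SE 0.13, edgeR adjusted p = 3.52e-08) and Prg4, the lubricant lubricin, at 1.82 (SE 0.27, edgeR adjusted p = 8.16e-05). Keratins of simple epithelium that passed were Krt18 at 0.89, Krt8 at 0.87 and Krt7 at 0.69, while Krt19 did not pass at 0.22. Slpi, a secreted protease inhibitor, was at 0.74, and podoplanin (Pdpn), a mucin-type protein of mesothelium, lymphatics and type I cells, was at 0.63. On the lower side, Igfbp6, which binds insulin-like growth factor 2, was at -2.11 (SE 0.15, edgeR adjusted p = 1.56e-07) and Nkain4, a sodium pump partner, at -0.71 (SE 0.10, edgeR adjusted p = 4.00e-05). Cldn15 also passed as lower, at -0.50 (SE 0.17, edgeR adjusted p = 0.0225). The summed level of the 18 genes was 1471 to 1641 TPM in control and 1774 to 2132 in WT bleomycin lungs, above control in each mouse. Genes that epithelium also expresses weigh in it, such as Krt7, at a mean of 172 TPM in control and 278 in WT bleomycin lungs. The highest mean of the 18 in WT bleomycin lungs was that of C3, at 414 TPM after 267 in control. Igfbp6 went the other way, with 360 TPM in control and 85.2 in WT bleomycin lungs. Nkain4 was at 53.0 and 32.4 TPM. The sum of the 9 mesothelial markers overlapped with control, and without Msln it lay below.

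In CB1R KO lungs against control, 6 of the 16 passed as higher and 3 as lower, where 19.0% and 16.3% of all genes did. Between CB1R KO and WT bleomycin lungs 1 passed, on the lower side: Anxa8, an annexin, at 20.7 to 31.4 CPM in CB1R KO and 32.1 to 54.9 in WT mice without overlap (log2 -0.77, SE 0.16, edgeR adjusted p = 0.0411). Next in order of p came Ildr2 at -0.54 (edgeR adjusted p = 0.05004, just over the threshold), Prg4 at -1.08 (edgeR adjusted p = 0.0626) and Aldh1a2 at -0.44 (edgeR adjusted p = 0.0827). Prg4 was 7.28 to 13.1 CPM in WT and 3.99 to 5.49 in CB1R KO bleomycin mice, without overlap. Aldh1a2 is a retinoic acid synthesis enzyme of mesothelium, and its relative Aldh1a3 passed as lower in CB1R KO than in WT bleomycin lungs (-1.36, edgeR adjusted p = 0.0384) after a rise of 1.54 in WT lungs.

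**Figure D4:**
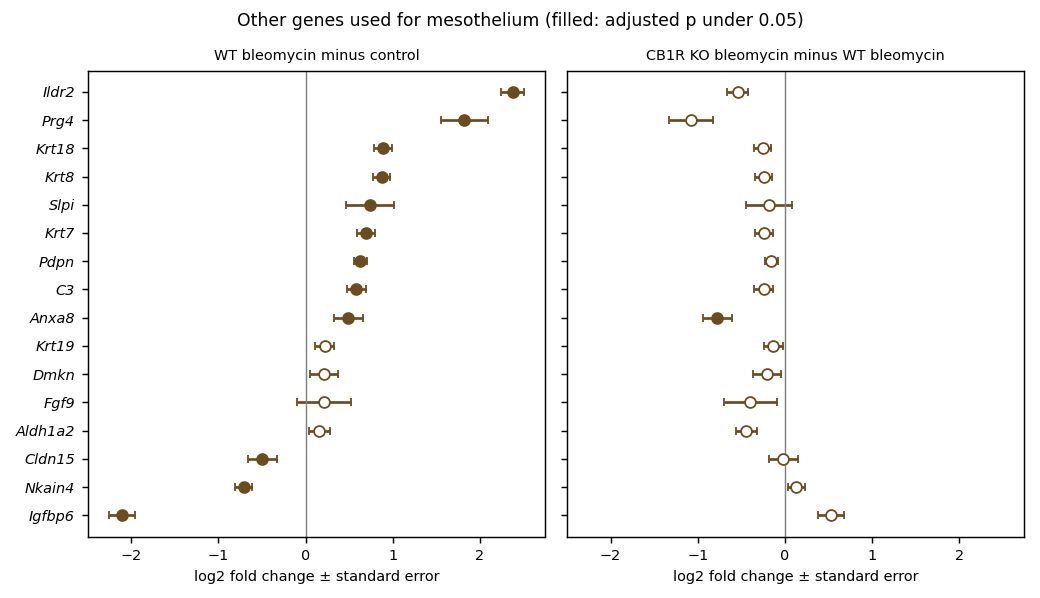
Log2 fold changes with standard errors are plotted for the 16 other genes used for mesothelium, in WT bleomycin minus control on the left and CB1R KO minus WT bleomycin on the right, with filled points for an edgeR adjusted p under 0.05. On the left 9 points are filled above 0 and 3 below, and on the right Anxa8 alone is filled, at -0.77.

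Within groups, the 9 genes tended to be high or low in the same mice. Each gene's log2 CPM was set against its own group mean, and Pearson's r between pairs of genes over the 13 libraries had a median of 0.50 over 36 pairs, with a range of -0.13 to 0.86 and 35 pairs above 0. The points share library and depth, and the values are a description. They were not recomputed without WT replicate 4, and pairs of other genes were not set beside them. Against the mean of the other 8, Rspo1 had the highest r at 0.92, then Upk3b at 0.87 and Lrrn4 at 0.78, and the lowest were Gpm6a at 0.42 and Wt1 at 0.23. Without CB1R KO replicate 11 the value of Wt1 was 0.44 and that of Gpm6a 0.33, so the order of these 2 rests on that library. WT replicate 4 was below its group mean for all 9 genes, with a mean deviation of -0.41 on the log2 scale. CB1R KO replicate 9 was above for all 9, by a mean of 0.29, and WT 5 was above for 8 of 9, by 0.27. CB1R KO replicate 11, the deepest library, was at -0.23.

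**Figure D5:**
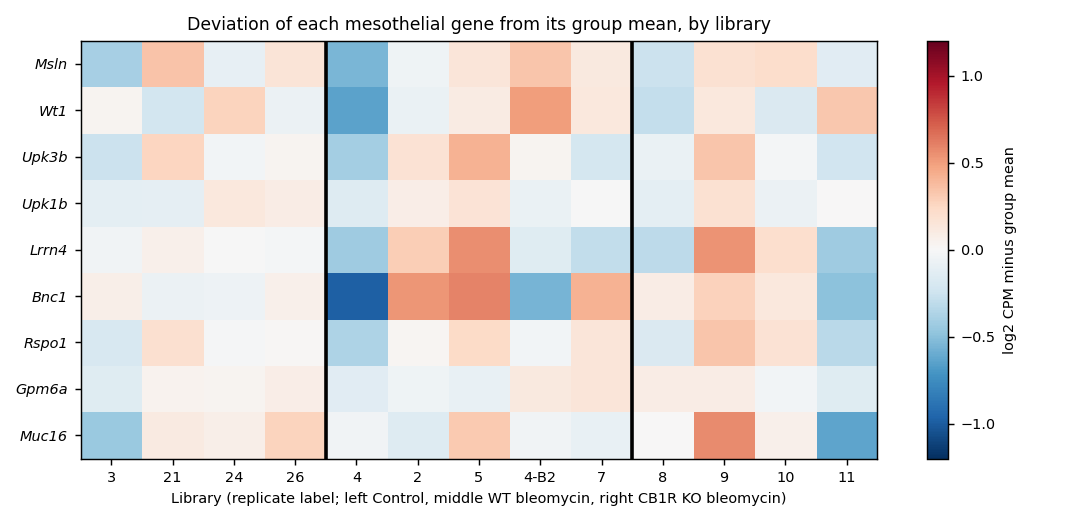
The colour of each cell is the log2 CPM of 1 gene in 1 mouse minus that gene's group mean, red for above and blue for below, with mice ordered by group from left to right. The column of WT replicate 4 is blue for all 9 genes and that of CB1R KO replicate 9 red for all 9, with the deepest blue at -0.98 for Bnc1 in WT replicate 4.

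Over all other genes tested, the 10 most like the mean of the 9 in these deviations were Klhl38 (r = 0.90), Slc50a1 (0.89), Myo1h (0.88), Dlg5 (0.87), Inafm2 (0.87), Cckar (0.83), Atp6v1b1 (0.83), Havcr2 (0.82), Gm49909 (0.82) and Igf2bp2 (0.81), over 13 libraries. The mean of the 16 other mesothelial genes gave r = 0.68 with that of the 9, and Aldh1a2 was the nearest single gene of that list at 0.70. Others of the list were not alike, with Ildr2 at 0.03, Nkain4 at -0.02 and Slpi at -0.14. Scgb1a1, a gene of club cells, was nearer than any of them at 0.74, while the club cell list gave 0.19. For comparison, the smooth muscle list gave 0.46, genes that all cells use gave 0.44, type I cells gave 0.03, cardiac muscle 0.03 and adipocytes -0.28. Both Gpm6a and Msln alone had their highest value with the other mesothelial genes, at 0.71 and 0.85. Gpm6a gave 0.69 with ciliated cells, 0.47 with capillary endothelium and 0.44 with alveolar fibroblasts. It gave 0.44 with genes that all cells use and 0.43 with type I cells. Msln gave 0.50 with activated fibroblasts and 0.49 with lymphatic endothelium. Gpm6a and Msln both had their lowest value with adipocytes, at -0.52 and -0.36.

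Other cell types moved with bleomycin in the same libraries. In WT bleomycin lungs against control, 23.9% of all genes passed as lower and 25.0% as higher. Lower were 6 of 6 capillary endothelium genes, 5 of 6 alveolar fibroblast genes and 6 of 7 type II alveolar cell genes. Club cell genes gave 3 of 4 lower and ciliated cell genes 1 of 6. Higher were 5 of 5 activated fibroblast, 3 of 5 adventitial fibroblast and 2 of 4 lymphatic genes. Of genes that all cells use, 3 of 4 were higher. Smooth muscle genes gave 3 higher and 1 lower of 5, and nerve cell genes 1 higher and 2 lower of 3. Capillary genes summed to 1312 to 1494 TPM in control, 897 to 1029 in WT bleomycin and 874 to 1192 in CB1R KO bleomycin lungs, and activated fibroblast genes to 373 to 413, 1530 to 2072 and 929 to 1662 TPM. Cardiac muscle genes, of which 6 of 6 passed as lower, summed to 544 to 1440 TPM in control, 108 to 410 in WT bleomycin and 391 to 707 in CB1R KO bleomycin lungs. Adipocyte genes, of which 2 of 4 passed as lower, summed to 48.6 to 178, 36.6 to 83.0 and 45.0 to 226 TPM. None of these genes was at 0 in every library, and their part in the differences of the mesothelial genes was not tested.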

How the data were processed

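Groups of the 13 lung libraries came from the labels of treatment and genotype. The authors quantified paired-end HiSeq reads with Kallisto on the Ensembl mouse reference (GRCm39 per the labels), and deposited estimated counts and TPM, with protein-coding transcripts summed per gene symbol. The deposited estimated counts are not normalized, and 70.5% of them are not whole. The 13 sample files duplicate the 2 series tables, and 1 column of the TPM table that matches no sample here was not used.

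Estimated counts were rounded, filtered with filterByExpr (15315 of 20270 genes kept), scaled by TMM and fitted in edgeR 4.0.16 (R 4.3.3, quasi-likelihood test), with 1 coefficient per group over all 13 libraries and p-values adjusted after Benjamini and Hochberg over all tested genes, at 0.05. Standard errors are the log2 fold change divided by the root of F. Log2 CPM used a prior count of 2. Ratios of genes were log2 ratios of TPM + 0.1, compared by two-sided exact permutation tests and adjusted over 9 tests. The scripts were tested on simulated data. Alternatives were other count filters (none, or 10 counts required in each library), RLE and upper-quartile scaling, DESeq2 1.42.0, limma 3.58.1 on log2(TPM + 1) and log2(TPM + 0.1), edgeR on 2 groups, label style as a term, only the more common label style, CB1R KO replicate 11 thinned, and each library left out. For ratios they were pseudocounts of 1 and 0.01, CPM, label style and each library left out. Python 3.11.15 with pandas 2.3.3, numpy 2.4.6, scipy 1.17.1 and matplotlib 3.10.9 was used.

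The genes named are the 9 members, genes of the members' families, and the 10 genes most like the members. Named too are up to 8 (bleomycin) and 4 (genotype) genes of smallest p from the list of other mesothelial genes. C3, Krt19, Slpi, Cldn15, Scgb1a1 and the type I genes were added after their values were seen. The members and lists were chosen with earlier results of these data known. Labels number the libraries but do not state that each is a separate mouse, and WT bleomycin 4 and 4-B2 share a number. Each library was taken as 1 mouse. No cultures or litters are given, so p-values measure the spread between these samples. The deepest library, with 53463884 estimated counts, has the smallest counting error. Other listed genes enter only as counts, and 1 result is not reported here.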

Additional observations from a re-analysis of the deposited data

Results flagged for a closer look

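Among 36 groups of 4 or 5 mice examined for a mouse far from the rest, 2 were found, and chance gives about 1 in 20. Muc16 in WT bleomycin replicate 5 was 12.6 CPM, with the other 4 WT mice at 9.08 to 9.83, a gap of 0.789 of the group's range. In TPM this mouse was at 4.94, inside the WT bleomycin range of 4.10 to 5.55. The log2 ratio of Wt1 to Bnc1 in control replicate 24 was 1.02, with the other 3 controls at 0.55 to 0.58, a gap of 0.942 of the range. Both gaps are past the critical values of Dixon's test for these group sizes.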

How the results depend on the processing

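Of 648 values of the 9 genes' fold changes over the alternatives, 637 stayed on their side of the threshold, 3 lost the call, 8 gained it and none that was called changed sign. Of differences that never passed, 3 crossed 0 when 1 library was left out: Wt1 in WT lungs against control (0.03 without WT 4), and Upk3b (0.06) and Lrrn4 (0.04) between genotypes without WT 5. Each library left out in turn, 6 to 7 of the 9 genes passed in WT bleomycin against control, 5 to 6 in CB1R KO bleomycin against control and 0 to 1 between genotypes. That 1 was Msln without WT replicate 4, and Msln was also the 1 gene called by DESeq2. The number of all genes called between CB1R KO and WT bleomycin, 150, was 644 with DESeq2, 88 with edgeR on 2 groups, 93 with limma on log2(TPM + 0.1), 41 with label style as a term and 6 among mice with the more common label style. Leaving out 1 library it ranged from 1 to 653: 1 without CB1R KO 9, 3 without 11, 9 without 8 and 653 without 10, 24 without WT 5, 30 without 4-B2, 35 without 7, 62 without 2 and 230 without 4, and 85 without control 24. The cause was not tested. Besides the values given with Muc16 above, its fall in WT lungs did not pass with limma on log2(TPM + 0.1) (-0.40, adjusted p = 0.0691). No ratio of genes passed under any alternative, but this says little. The smallest p that the exact permutation test can give, 0.0159 or 0.0286 with all libraries, grows as libraries are left out. Wt1 and Bnc1 rest on few counts, down to 33.2 and 29 in a library, which limits what their comparisons could show.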
